A study of Mus musculus with 16 samples.

Results

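The genes described here encode the mitochondrial respiratory chain and ATP synthase. They were chosen by gene type and gene name alone, and no expression value entered the rule, but the family was put forward with earlier results of these libraries known. A gene belonged if it was annotated as protein coding and its symbol began with Nduf, Uqcr, Atp5, Cox4 to Cox8 or mt-, or was Sdha, Sdhb, Sdhc, Sdhd or Cyc1. This gave 111 of 56941 genes, of which 21684 were protein coding, in each of 2 tables of normalized counts. Nuclear DNA encodes 98 of these members and mitochondrial DNA encodes 13. Of the 111 members, 106 had summed counts of at least 10 and were tested in both tables, 93 nuclear and 13 mitochondrial. The other 5, Cox7b2, Cox8b, Cox8c, Ndufb11b and the second of the Atp5o entries, were at or near 0 in every library.

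The study asked how sympathetic ganglia and pancreatic fibroblasts alter one another's transcripts when they share medium but do not touch. Superior cervical ganglion (SCG) explants came from wild-type C57BL/6J pups of postnatal day 1 to 4. Pooled explants, 8 to 13 at a time, grew in medium with nerve growth factor for about 70 h, in coculture beneath an insert that held 10000 cells of a line. The line was mPSC1, a single immortalized mouse pancreatic stellate cell (PSC) line, or NIH 3T3, the mouse embryonic fibroblast (MEF) control, also a single line. RNA from the fibroblast side gave 3 libraries of PSC grown alone (PSC) and 3 of PSC grown with explants (PSC+SCG), and RNA from the explants gave 3 libraries of SCG alone (SCG), 3 of SCG+MEF and 4 of SCG+PSC. No group carried a transgene or a drug treatment in the labels. SCG+PSC library 4 stayed outside the tests, as the comparisons used libraries 1 to 3 of each group, and its value is given where single libraries are listed. The 16 libraries held 31900689 to 41632381 reads on genes, recovered from the steps of the deposited values. Sympathetic neuron markers such as Th and Dbh summed to between 166444 and 348697 normalized counts in the explant libraries, with none of 15 at 0. In the PSC libraries the same markers summed to between 2068 and 2839, with 5 to 7 of the 15 at 0, while the 9 fibroblast markers were all detected and summed to between 406359.5 and 692744. Whole explants also hold glia, fibroblasts, macrophages and endothelial cells, so fewer cells of a type and less RNA per cell cannot be told apart in these values.

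The respiratory chain passes electrons from NADH and succinate to oxygen through complexes I to IV in the inner mitochondrial membrane, and complex V, the ATP synthase, uses the resulting proton gradient to make ATP. Most subunits are encoded in the nucleus, translated in the cytoplasm and imported, whereas a small core is encoded by mitochondrial DNA, so assembly needs transcripts from both genomes. Neurons draw heavily on this pathway for firing and axonal transport.

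The mitochondrial genes set a limit on what short reads can show, because part of mitochondrial DNA also lies in the nuclear genome. In GRCm39, an ungapped stretch of 3435 bases, 6394 to 9828 of the mitochondrial chromosome, was found on the minus strand of chromosome 1. It lay at 24651831 to 24655265, with 1 base different. That difference was T9461C, with positions counted along the mitochondrial chromosome, the mitochondrial base first and the chromosome 1 base last. It fell in mt-Nd3, which encodes a complex I subunit. The copied sequence did not end with the ungapped stretch. Exact 100-base matches to mt-Nd4l and mt-Nd4, which start past base 9828, lay beside that stretch on chromosome 1. They were at 24651485 to 24651781 and at 24650616 to 24651491. The first 90 bases of mt-Co2, a catalytic subunit of complex IV, are shown beside their chromosome 1 copy, since the letters are the same in both. The stretch of mt-Nd3 with the single difference in capitals follows.
mt-Co2, chrM:7013-7102, plus strand: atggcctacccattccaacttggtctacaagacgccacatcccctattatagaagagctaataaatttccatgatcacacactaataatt
Chromosome 1 copy, chr1:24654557-24654646, minus strand: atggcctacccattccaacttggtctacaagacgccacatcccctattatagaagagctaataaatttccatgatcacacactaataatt
mt-Nd3, chrM:9431-9491, plus strand: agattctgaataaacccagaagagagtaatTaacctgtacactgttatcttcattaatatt
Chromosome 1 copy, chr1:24652168-24652228, minus strand: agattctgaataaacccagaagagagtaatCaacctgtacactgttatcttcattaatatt

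The read length is not given in the sources used here, and 100 bases was taken as a window length for single reads, whereas the study sequenced read pairs. Every 100-base window of mt-Co2, mt-Atp8, mt-Atp6, mt-Co3 and mt-Nd4l occurred exactly elsewhere in the genome, as did 98.8% of those of mt-Nd3, 60.8% of those of mt-Nd4 and 30.8% of those of mt-Co1. The share was 3.2% for mt-Nd2 and 0 for mt-Nd1, mt-Nd5, mt-Nd6 and mt-Cytb. The authors' counting kept reads that map to 1 place. Within mitochondrial DNA, mt-Atp8 and mt-Atp6, which encode subunits of the ATP synthase membrane part, also share bases. The shared bases of both reading frames are in capitals below.
mt-Atp8 and mt-Atp6, chrM:7912-7984, plus strand: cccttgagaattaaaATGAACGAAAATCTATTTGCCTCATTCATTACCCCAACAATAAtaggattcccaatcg

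The deposited levels of the mitochondrial genes fell into 2 ranges, given here for each table on its own because the tables were normalized separately. Per kb of coding length, mt-Co1, the other catalytic subunit of complex IV, had the highest mean in both tables, 147198 normalized counts in PSC and 134277 in SCG. It was followed by mt-Cytb of complex III with 94048 and 69219.8, and by mt-Nd1 of complex I with 60185 and 67272. On the same per-kb scale mt-Co2 had 5282 in PSC and 3208 in SCG, and mt-Co3 had 1539 and 1549. mt-Atp6 had 1128 and 918, mt-Atp8 617 and 636, mt-Nd4l 327 and 368, and mt-Nd3 275 and 279. The 6 genes with nearly all windows elsewhere were therefore below the 6 with the highest counts (mt-Nd1, mt-Nd2, mt-Co1, mt-Nd4, mt-Nd5 and mt-Cytb), which held 98.3% to 99.5% of the mitochondrial counts of every library. mt-Nd6, the member on the minus strand, had 1214 in PSC and 343 in SCG per kb although none of its windows occurred elsewhere. Counts also stood against the annotated chromosome 1 pseudogenes of this copy: Gm28661 had between 1608 and 3362 normalized counts in the PSC table and between 1024 and 1996 in the explant table. How far multiple mapping set the low counts was not tested.

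**Figure D1:**
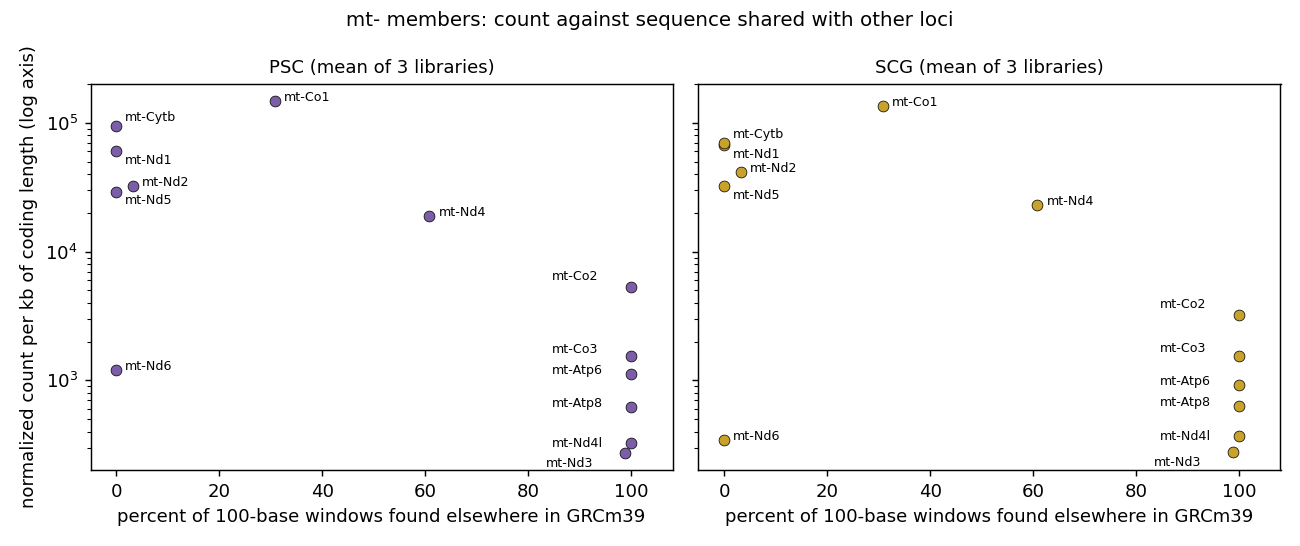
Each point is 1 of the 13 mt- members, in PSC (left) and SCG (right); the horizontal axis is the percent of its 100-base windows that occur exactly elsewhere in GRCm39, and the vertical log axis is the mean normalized count per kb of coding length over 3 libraries. The 6 genes at 98.8% to 100% lie below the 6 high genes, and mt-Nd6 is low at 0%.

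The share of counts on mitochondrial members differed more between libraries of 1 group than between groups. It was 2.03%, 1.36% and 0.889% in PSC libraries 1, 2 and 3, and 2.31%, 1.27% and 0.759% in PSC+SCG libraries 1, 2 and 3. The groups overlapped completely, with means of 1.43% ± 0.573 and 1.45% ± 0.790 (SD, n = 3 each), and libraries of the same number were alike. In the explants the share was 1.81%, 1.3% and 1.16% in SCG, and 1.70%, 1.33% and 1.80% in SCG+MEF. In SCG+PSC it was 1.53%, 1.31%, 1.01% and 0.941%. Library 1 was highest in PSC, PSC+SCG, SCG and SCG+PSC, whereas SCG+MEF library 3 was as high as SCG+MEF library 1.

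The nuclear members held a smaller and steadier share. It was 0.899%, 0.923% and 1.04% in PSC and 0.781%, 0.893% and 1.03% in PSC+SCG. It was 0.793%, 0.721% and 0.909% in SCG, 0.740%, 0.744% and 0.837% in SCG+MEF, and 0.747%, 0.724%, 0.795% and 0.803% in SCG+PSC. Library 3 was the highest of libraries 1 to 3 in all 5 groups, the reverse of the mitochondrial order in PSC and PSC+SCG. The ratio of mitochondrial to nuclear counts ran from 0.739 in PSC+SCG library 3 to 2.96 in PSC+SCG library 1. Cell markers moved with the library number too. The neuron marker sum was 294355, 166444 and 348697 in SCG libraries 1, 2 and 3, the same order as the nuclear share. The dividing-cell marker sum was 7585, 25843 and 12705 in those libraries, lowest where the mitochondrial share was highest. Both matches held over SCG+PSC libraries 1 to 3 but not in SCG+MEF. There the neuron marker sum was 312328, 239094 and 324317, lowest in library 2, whereas the nuclear share was lowest in library 1. The dividing-cell marker sum there was 9054, 28355 and 13770.2, lowest in library 1, whereas the mitochondrial share was highest in library 3. In PSC the fibroblast marker sum was 672191, 649439 and 467570.1. The part of cell makeup in the shares was not tested.

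**Figure D2:**
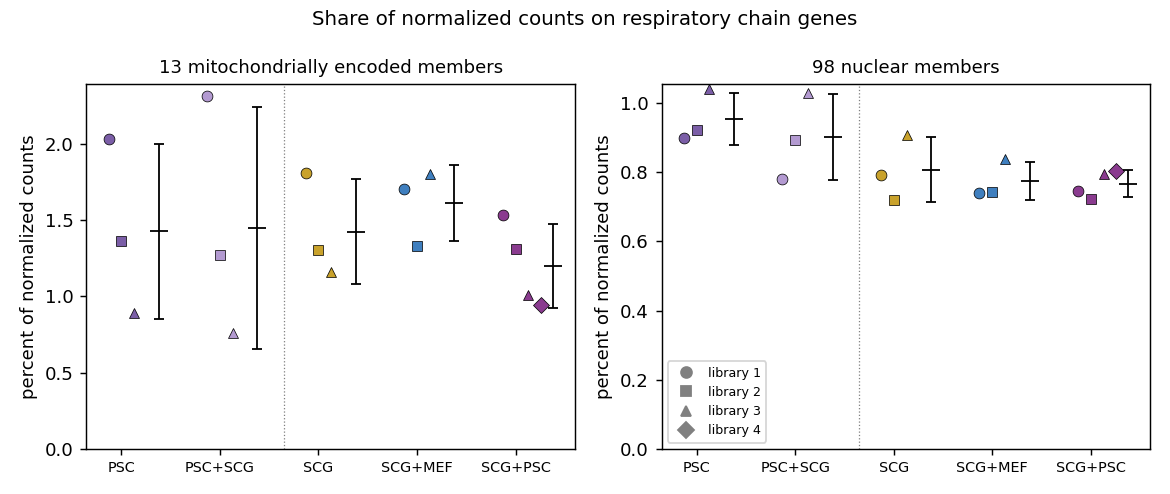
Percent of each library's normalized counts on the 13 mitochondrial (left) and 98 nuclear members (right), by group; symbols give the library number and bars the mean ± SD of a group (n = 3, or 4 for SCG+PSC), with the PSC and explant tables parted by a dotted line. Mitochondrial shares run from 0.759% to 2.31% and nuclear shares from 0.721% to 1.04%, and the groups overlap in both panels.

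Among nuclear members, Atp5b, the catalytic beta subunit of ATP synthase, was the most abundant by count. Its normalized count was 47979 ± 7459 in PSC and 46071 ± 11428 in PSC+SCG (SD, n = 3 each). It was 35838 ± 4629.8 in SCG, 34355 ± 2379.6 in SCG+MEF (n = 3 each) and 34713 ± 751 in SCG+PSC (n = 4). The most abundant member of complex II was Sdha, its flavoprotein subunit (10118 ± 351 in PSC and 8755 ± 705 in SCG). For complex IV it was Cox4i1 (12296 ± 1377 and 9762 ± 1847). For complex III it was Cyc1, cytochrome c1, in the PSC table (6767 ± 860.5 in PSC) and Uqcrc1, a core protein, in the explant table (6410.1 ± 1089.7 in SCG). Per kb of coding length the order changed. Cox6c led in PSC with 31167, ahead of Atp5b with 30233, and Atp5b led in SCG with 22583, ahead of Cox6b1 with 21695. These neighbours were closer than the spread of the libraries. Reads also fall on untranslated bases, which coding length leaves out. Cox6c has 228 coding bases in a transcript of 503, Cox6b1 258 in 658 and Atp5b 1587 in 1926, so this order depends on the length used.

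The promoters of these genes are known for sites of nuclear respiratory factor 1 and ETS factors, so their sequence was read for both. Of 97 nuclear symbols, 77 matched a 300-base window of the RefSeq promoter set (GRCm38.p6). The nuclear respiratory factor 1 motif, spelled GCGCA, any base, GCGC, was found on either strand in 18 of 77 windows (23.4%), against 4.78% of all 27025 windows. CCGGAAG, an ETS motif, was also found in 18 of 77 (23.4%), against 9.12% of all windows. Both were present in 4 members (Atp5h, Atp5k, Cox6a1 and Sdhd) and neither in 45. Sdha and Uqcrc1 are shown because they were the most abundant members of complexes II and III (Uqcrc1 in the explant table) and hold a motif, and Cox6a1, a complex IV subunit, as a window that holds both. Capitals mark matches to either motif on either strand, and a match is a description of the letters only.
Sdha, GRCm38.p6 chr13:74350191-74350490, minus strand: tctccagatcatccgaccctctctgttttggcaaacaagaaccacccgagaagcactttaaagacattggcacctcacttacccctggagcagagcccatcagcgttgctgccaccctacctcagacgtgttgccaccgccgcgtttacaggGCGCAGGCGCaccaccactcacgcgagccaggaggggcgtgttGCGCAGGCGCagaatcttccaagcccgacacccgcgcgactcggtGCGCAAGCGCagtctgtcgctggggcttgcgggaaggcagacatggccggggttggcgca
Uqcrc1, GRCm38.p6 chr9:108936398-108936697, plus strand: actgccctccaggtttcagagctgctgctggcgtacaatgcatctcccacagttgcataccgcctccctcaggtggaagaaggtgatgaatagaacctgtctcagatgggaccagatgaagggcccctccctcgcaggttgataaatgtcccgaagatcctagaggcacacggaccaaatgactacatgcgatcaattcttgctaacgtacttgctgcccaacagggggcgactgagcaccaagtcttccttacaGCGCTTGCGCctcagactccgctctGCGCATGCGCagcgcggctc
Cox6a1, GRCm38.p6 chr5:115348909-115349208, minus strand: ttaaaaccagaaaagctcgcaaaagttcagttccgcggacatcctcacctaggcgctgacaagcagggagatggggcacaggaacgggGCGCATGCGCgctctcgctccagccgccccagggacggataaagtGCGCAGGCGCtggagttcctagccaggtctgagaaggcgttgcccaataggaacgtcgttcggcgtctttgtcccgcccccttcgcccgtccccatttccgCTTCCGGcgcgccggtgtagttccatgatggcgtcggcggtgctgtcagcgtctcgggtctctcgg

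The first comparison asked whether ganglia altered these transcripts in PSCs. No member passed the threshold (limma with trend; Benjamini-Hochberg adjusted p no greater than 0.05, with the log2 fold change 0.5 or more either way), where 0% of 21273 genes tested passed. At an unadjusted limma p under 0.05 there were 2 members among 408 genes, or 9 among 1781 with the replicate number as a block. edgeR on the recovered reads also called 0 members. With the replicate number as a block 0.461% of all genes passed, and still no member, with a smallest adjusted p of 0.147, for both mt-Co2 and mt-Nd6. Most nuclear members were slightly lower in PSC+SCG: 83 of 93 had a negative log2 fold change, the median was -0.07 and the quartiles were -0.11 and -0.02, while the median over all genes was -0.01. This median rested on single libraries. In 25 members (26.9%) all 3 same-numbered pairs were lower, against 14.3% of all genes. Between libraries of the same number the nuclear median difference was -0.20, -0.05 and 0.04 for numbers 1, 2 and 3, and without PSC+SCG library 1 the median log2 fold change was 0.03, with 28 of 93 negative. Without PSC library 3 it was -0.01, with 52 of 93 negative, and without PSC+SCG library 3 it was -0.20. Every PSC+SCG library was below every PSC library for 1 nuclear member, Ndufs3, and for mt-Co3 and mt-Nd4l, against 2.91% of all genes. Every PSC+SCG library was above for no member, against 2.68% of all genes.

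The nuclear members with the lowest fold changes in PSC+SCG were Cox5b-ps, Atp5o and Ndufb9. Cox5b-ps, a protein-coding row named as a pseudogene of the complex IV subunit gene Cox5b, had 172, 204 and 254 normalized counts in PSC and 68.2, 150.0 and 204 in PSC+SCG (log2 fold change -0.69 ± 0.39 SE). Atp5o, a stalk subunit of ATP synthase, had 1615, 1682 and 1937 in PSC and 781, 1498 and 2029 in PSC+SCG (-0.38 ± 0.30 SE). Ndufb9, an accessory subunit of complex I, had 1185, 1296 and 1508 against 701, 1076 and 1506 (-0.34 ± 0.25 SE). In all 3 the low value was PSC+SCG library 1 and the groups overlapped. Cox5b-ps shares 29.1% of its 100-base windows with other loci. Among members with a mean of at least 100, the highest fold changes were those of the complex I assembly factors Ndufaf3 with 0.18 ± 0.23, Ndufaf7 with 0.03 ± 0.13 and Ndufaf4 with 0.03 ± 0.23 (log2, SE), none larger than its own error. Below that mean, Ndufa4l2 had 1.12 ± 0.78, Cox4i2 1.01 ± 0.52, Cox6a2 0.40 ± 0.65 and Cox6b2 0.39 ± 0.51. Short members carried more of the difference at number 1. With coding lengths split at their median of 436.5 bases, the median difference of PSC+SCG library 1 from PSC library 1 was -0.27 for 46 short nuclear members and -0.13 for 47 long ones, against -0.10 and 0.03 for all protein-coding genes split at the same length. The part of transcript length in the difference was not tested.

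In PSCs the mitochondrial members had a median log2 fold change of -0.30, with 11 of 13 negative and a range from -0.69 to 0.01, and they gave 2 pictures. Those with the highest counts followed the library number: mt-Co1 had 329733, 217376 and 133827 normalized counts in PSC and 399911, 208947 and 116605 in PSC+SCG (log2 fold change 0.01 ± 0.47 SE), and mt-Cytb had 150683, 101221 and 70868 against 157562, 92694 and 67217 (-0.05 ± 0.36 SE). All 6 genes copied on chromosome 1 had a lower mean in PSC+SCG, and groups overlapped for 4 of them. mt-Co3 had 1454, 996 and 1170.4 in PSC and 939, 855 and 973 in PSC+SCG (-0.37 ± 0.16 SE, adjusted p = 1 by limma, 0.204 with the block). mt-Nd4l had 113, 106 and 69.4 against 49.4, 68.1 and 57.4 (-0.69 ± 0.30 SE). mt-Co2 had 4848, 3429 and 2514 against 2564, 2758 and 2426 (-0.43 ± 0.22 SE). mt-Atp6 had 851, 687 and 756 against 590.3, 542 and 747, mt-Nd3 had 54.1, 85.1 and 145 against 40.5, 47.4 and 113, and mt-Atp8 had 87.9, 116 and 169 against 77.1, 126 and 81.9, where library 2 was higher in PSC+SCG. Groups did not overlap for mt-Co3 and mt-Nd4l, and overlapped for mt-Co2, mt-Atp6, mt-Nd3 and mt-Atp8. Summed over the 6 copied genes, PSC had 7409.6, 5418 and 4824 and PSC+SCG 4260.5, 4396 and 4399, without overlap. Summed over 6 annotated pseudogenes of the copy, PSC had 7482, 5717 and 4629 and PSC+SCG 5034, 4499.7 and 4010.4, with overlap. mt-Nd6 had 545, 506 and 828 in PSC and 267, 601 and 373 in PSC+SCG (-0.64 ± 0.31 SE). The grouping of the 6 copied genes was set after their values were seen, so it carries no test.

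**Figure D3:**
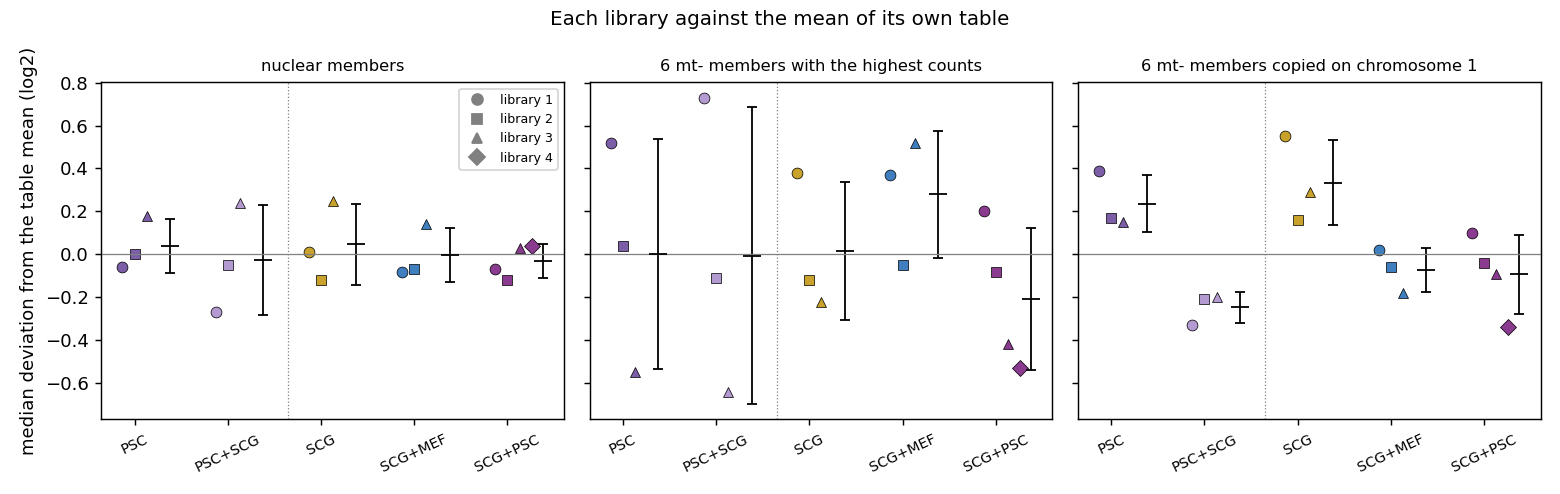
Median over genes of the log2 deviation of each library from the mean of its own table, for nuclear members, the 6 mt- members with the highest counts and the 6 mt- members copied on chromosome 1; symbols give library numbers and bars the mean ± SD of a group. High-count mt- members spread from -0.64 to 0.73 by library number in the PSC table, whereas the copied ones lie at 0.15 to 0.39 in PSC and at -0.33 to -0.20 in PSC+SCG.

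The second comparison asked what PSCs did to these transcripts in the explants. No member passed in SCG+PSC against SCG, where 0.0128% of 23491 genes passed. At an unadjusted limma p under 0.05 there were 3 members among 943 genes, or 15 among 2511 with the replicate block. edgeR and DESeq2 on the recovered reads called 0 members as well. With the replicate block 1.33% of genes passed and no member did, although mt-Co3 came near with an adjusted p of 0.0569. Of 93 nuclear members 86 had a negative log2 fold change, with a median of -0.09 and quartiles of -0.15 and -0.04, beside a median of 0.00 over all genes. In 32 members (34.4%) all 3 same-numbered pairs were lower, against 14.8% of all genes. The difference between libraries of the same number was -0.09, 0.01 and -0.22, so it was absent at number 2 and was largest at number 3. Without SCG library 3 the median was 0.00, with 44 of 93 negative, and without SCG library 2 it was -0.17. Each of SCG+PSC libraries 1 to 3 lay below every SCG library for 6 members, against 3.43% of all genes: Ndufab1, the mitochondrial acyl carrier protein, Uqcrb of complex III, Atp5j of ATP synthase, mt-Atp8, mt-Atp6 and mt-Co3. SCG+PSC library 4 went against this for the 3 nuclear genes, with 1544 normalized counts of Ndufab1, 1880.1 of Uqcrb and 3007 of Atp5j, inside the SCG ranges of 1427 to 1628, 1826 to 2032 and 2802 to 3305. Libraries 1 to 3 all lay above SCG for no member, against 4.24% of all genes.

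Over the 13 mitochondrial members the median was -0.21, with 12 negative and a range from -0.68 to 0.00. mt-Co3, a structural core subunit of complex IV, had 1416, 1025 and 1201 normalized counts in SCG and 849, 804, 971 and 877 in SCG+PSC libraries 1 to 4 (log2 fold change -0.46 ± 0.14 SE, limma adjusted p = 1). mt-Atp8 had 133, 123 and 128 in SCG and 106, 76.0, 62.0 and 50.4 in SCG+PSC (-0.68 ± 0.23 SE). mt-Atp6 had 679, 553 and 635 against 471, 489.6, 496 and 428 (-0.35 ± 0.13 SE). In these 3 mitochondrial genes SCG+PSC library 4, which was not in the test, was also below the SCG range. All 3 are among the 6 genes copied on chromosome 1. Summed over those 6 genes, SCG had 5265, 3972 and 3824 normalized counts and SCG+PSC 3500.4, 3348, 3318 and 2840.3, without overlap. Summed over 6 annotated pseudogenes of the copy, SCG had 5961, 4088 and 4298 and SCG+PSC 3895, 3593, 3526 and 3054, also without overlap. The part of multiple mapping in these differences was not tested. Atp5j had a mean of 2993 ± 273 in SCG and 2735 ± 23.9 in SCG+PSC (SD, n = 3 each; -0.13 ± 0.11 SE), or 2803 ± 137 in SCG+PSC with library 4 (n = 4). Among nuclear members with a mean of at least 100, the 3 lowest were Cox5b-ps (-0.28 ± 0.19), Ndufb9 (-0.26 ± 0.16) and Cox7a2l, which helps complexes III and IV associate (-0.25 ± 0.16). The 3 highest were Ndufa4l2 (0.38 ± 0.48), Ndufb8 of complex I (0.07 ± 0.25) and Ndufaf8, an assembly factor (0.05 ± 0.17), all on the log2 scale with SE. Below that mean Cox6b2 had -0.84 ± 0.40, with 25.3, 16.2 and 30.7 in SCG against 8.63, 11.2, 20.3 and 17.1 in SCG+PSC. Ndufb8 shares 11.3% of its exon bases with another gene on the same strand. High-count mitochondrial genes did not part the groups: mt-Nd1 had 73959, 54375 and 64198 in SCG and 62248, 52273, 43616 and 39595 in SCG+PSC (-0.29 ± 0.21 SE), and mt-Cytb had 101127, 83386 and 53049 against 88313, 84068, 55898 and 54604 (-0.04 ± 0.25 SE).

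MEFs served as the fibroblast control. In SCG+MEF against SCG no member passed, where 0.0128% of genes passed, or 0.162% with the block. At an unadjusted limma p under 0.05 there were 2 members among 705 genes, or 8 among 1771 with the block. edgeR and DESeq2 called 0 members here too. The nuclear median was -0.04, with 66 of 93 negative, and the median of all genes was 0.02. Without SCG library 3 the nuclear median was 0.06, with 25 of 93 negative, and without SCG library 2 it was -0.12. Every SCG+MEF library lay below every SCG library for 5 members, against 3.64% of all genes: Atp5k, Ndufa3, Atp5o, mt-Atp8 and mt-Atp6. None lay above, against 2.99% of all genes. mt-Atp8 had 82.1, 72.7 and 85.1 in SCG+MEF (-0.67 ± 0.23 SE), and mt-Atp6 had 507, 478 and 421 (-0.41 ± 0.13 SE). Both cocultures thus had lower values of these 2 genes than SCG alone, but they share the SCG libraries. Both genes are among the 6 copied on chromosome 1. The sum over the annotated pseudogenes of the copy was 4605, 4148 and 3889 in SCG+MEF, which overlapped SCG. Among nuclear members with a mean of at least 100, the lowest were Cox5b-ps (-0.36 ± 0.19), Cox5b (-0.25 ± 0.13) and Ndufb8 (-0.23 ± 0.25). The highest were Ndufaf4 (0.15 ± 0.14), Ndufc2 of complex I (0.15 ± 0.16) and Ndufaf3 (0.14 ± 0.22). Below that mean the range was wider, from Cox4i2 (-1.06 ± 0.58) to Cox6a2 (0.51 ± 0.81). The mitochondrial median was 0.12, with 6 of 13 negative, and -0.09 without SCG library 3. The high-count genes were higher through 1 library: mt-Co1 had 262962, 179870.2 and 178335 in SCG and 251847, 188787 and 286662 in SCG+MEF (0.23 ± 0.23 SE).

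The direct contrast of the cocultures, SCG+PSC against SCG+MEF, shares no SCG libraries with itself and asked what was particular to PSCs. No member passed, where 0% of genes passed, or 0.788% with the block, and edgeR and DESeq2 called 0 members. With the block 9 members had an unadjusted limma p under 0.05, among 2750 genes. Without the block 1 member alone had such a p, among 755 genes. The member with that p was Cox6b2, the testis isoform of a complex IV subunit, with 25.3, 25.4 and 30.4 normalized counts in SCG+MEF and 8.63, 11.2, 20.3 and 17.1 in SCG+PSC (-1.04 ± 0.40 SE, limma adjusted p = 1, 0.255 with the block). The groups did not overlap. mt-Nd6 was the only other member with every SCG+PSC library lower, against 3.47% of all genes, with 227, 229 and 218 in SCG+MEF and 169.8, 149, 159 and 127 in SCG+PSC (-0.50 ± 0.25 SE). No member had every SCG+PSC library higher, against 3.90% of all genes. The mitochondrial median was -0.21, with 9 of 13 negative. It was -0.38 over the 6 high-count genes and 0.04 over the 6 copied genes, a split made after the data were seen. The nuclear median was -0.05, with 66 of 93 negative, and turned to 0.02 without SCG+MEF library 3. The lowest nuclear members with a mean of at least 100 were Ndufaf6 (-0.23 ± 0.24), Cox7a2l (-0.22 ± 0.16) and Ndufb4 of complex I (-0.22 ± 0.19). The highest were Ndufa4l2 (0.53 ± 0.48), Ndufb8 (0.30 ± 0.25) and Atp5o (0.11 ± 0.13). Below that mean Cox4i2 had 1.03 ± 0.58.

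**Figure D4:**
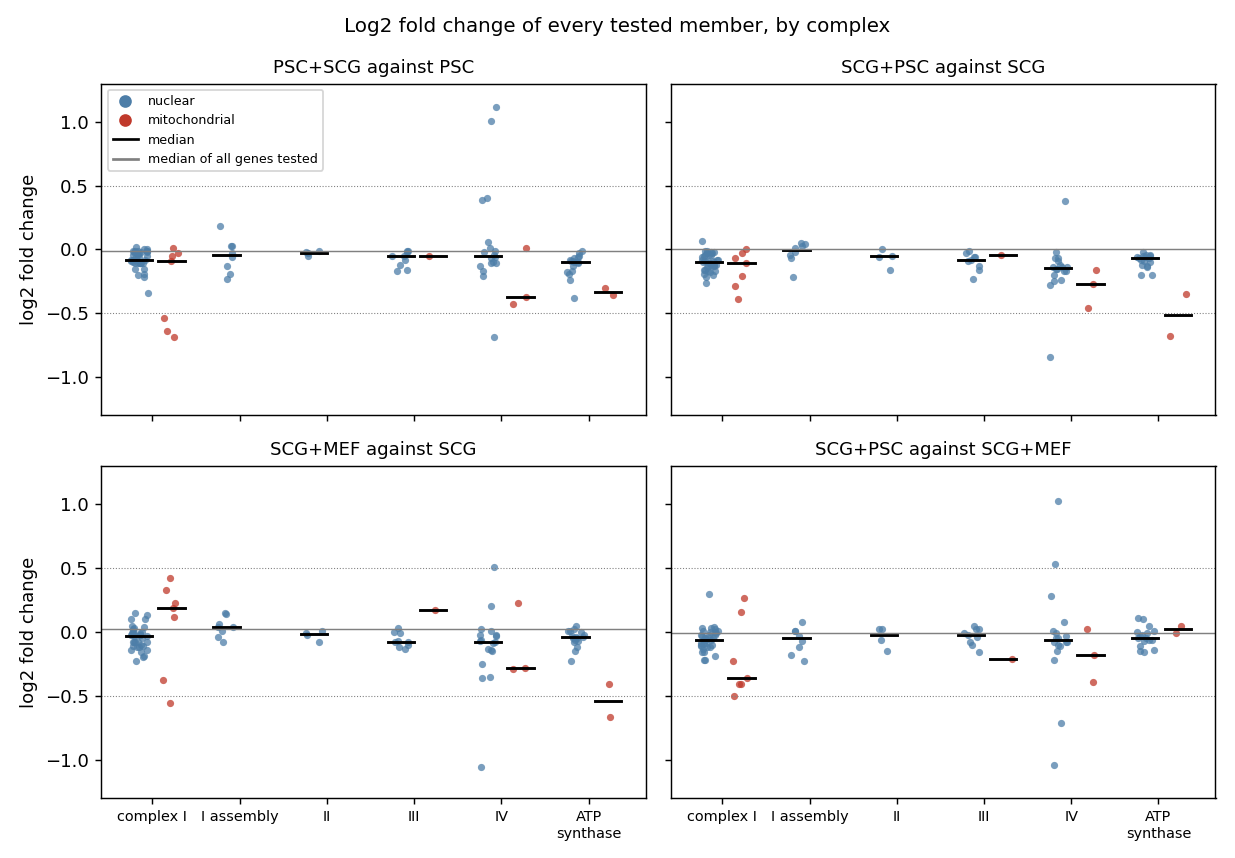
Log2 fold change (vertical axis) of every tested member by complex, for the 4 comparisons; blue points are nuclear and red points mitochondrial members, black bars their medians, the grey line the median of all genes and dotted lines the fold change threshold of 0.5. Nuclear subunits gather just below the grey line, with medians of -0.14 to -0.05 in SCG+PSC against SCG, where the assembly factors have -0.01. The mitochondrial points spread more widely.

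By complex, counting nuclear subunits only, most had negative log2 fold changes and the sizes were small. Of all genes tested, 51.9%, 49.5%, 45.8% and 51.4% were negative in the 4 comparisons, in the order given below. The direction changed when single libraries were left out. Without PSC+SCG library 1, 28 of 93 nuclear members were negative in the first comparison. Without SCG library 3, 44 of 93 were negative in the second and 25 of 93 in the third. In PSC+SCG against PSC 36 of 37 complex I subunits, all 4 of complex II, all 9 of complex III, 12 of 18 of complex IV and all 17 of ATP synthase had negative log2 fold changes, with medians of -0.08, -0.02, -0.05, -0.05 and -0.10. In SCG+PSC against SCG the counts were 36 of 37, 3 of 4, 9 of 9, 17 of 18 and 17 of 17, with medians of -0.10, -0.05, -0.08, -0.14 and -0.07. In SCG+MEF against SCG they were 28 of 37, 3 of 4, 7 of 9, 14 of 18 and 12 of 17, with medians between -0.08 and -0.02. In SCG+PSC against SCG+MEF they were 28 of 37, 2 of 4, 6 of 9, 13 of 18 and 12 of 17, with medians between -0.07 and -0.02. The 8 Ndufaf assembly factors, which help build complex I but are not part of it, were more evenly divided. In the same 4 comparisons 5 of 8, 4 of 8, 2 of 8 and 5 of 8 were negative. No difference between complexes was tested. Members of 1 complex are not replicates, and the 3 explant comparisons share libraries.

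Several complex IV subunits come as alternative isoforms, and the ubiquitous form held nearly all counts of each pair. The muscle and testis forms Cox6a2, Cox6b2 and Cox7a1 held at most 2.88% of the pair's counts in any library, and Cox7b2, Cox8b and Cox8c were at 0 or 1.01 normalized counts. The exception was Ndufa4l2, a hypoxia-induced relative of the complex IV subunit gene Ndufa4. In the explants it had 1359.8, 390.0 and 543 normalized counts in SCG, 616, 824 and 419 in SCG+MEF and 848, 509.9, 1477 and 968 in SCG+PSC. These amounted to 10.9% to 33.3% of the counts on Ndufa4 and Ndufa4l2 together. In the PSC table it had 0.963 to 12.7. Cox4i2, the other subunit isoform known for induction by low oxygen, had 228, 57.1 and 68.6 in SCG, 86.2, 51.7 and 21.3 in SCG+MEF and 84.4, 75, 135 and 75.6 in SCG+PSC. Both genes were highest in SCG library 1 among the SCG libraries and in library 3 among the SCG+PSC libraries, and all groups overlapped. In the PSC table Cox4i2 had 11, 3.41 and 5.78 in PSC and 13.8, 15.8 and 10.6 in PSC+SCG, at most 0.139% of the pair's counts.

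**Figure D5:**
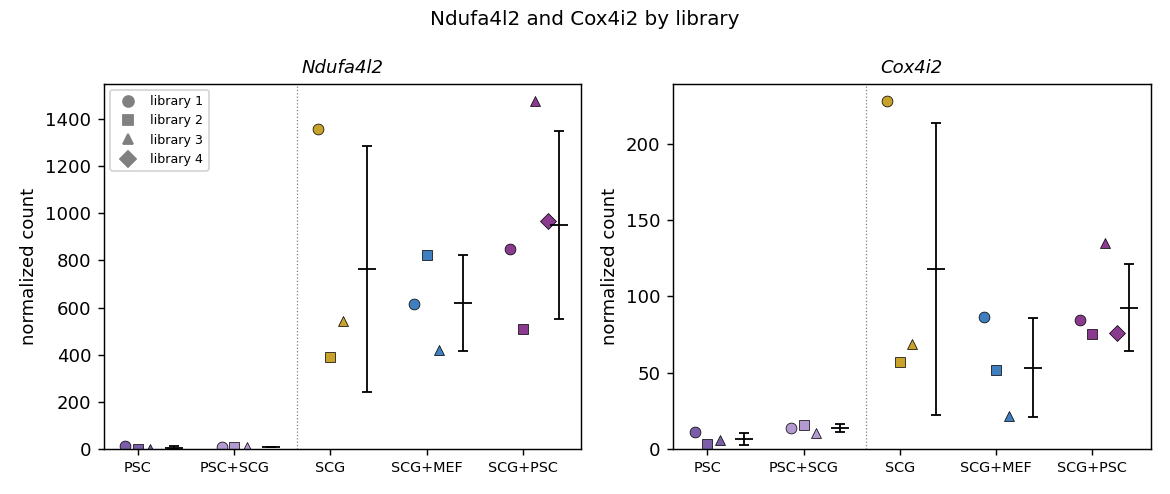
Normalized counts of Ndufa4l2 (left) and Cox4i2 (right) in every library by group; symbols give library numbers and bars the mean ± SD of a group. Both are near 0 in the PSC table and vary several-fold within SCG, from 390.0 to 1359.8 for Ndufa4l2 and from 57.1 to 228 for Cox4i2.

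Other marker and response genes varied beside these isoforms. The 13 hypoxia-response genes, among them Vegfa and Adm, summed to 30221, 28068 and 24498 in SCG and to 29126, 31025, 44265 and 34385 in SCG+PSC. Among the SCG+PSC libraries number 3 was thus highest for the sum and for both isoforms. In SCG+MEF the sum was 23478, 35861 and 26199. Library 2 was highest there for the sum and for Ndufa4l2, whereas Cox4i2 was highest in library 1, where the sum was lowest. None of the 13 passed in SCG+PSC against SCG. Their median log2 fold change was 0.58, with 11 of 13 positive. With the block 1 of them passed, Epas1, which was lower (-0.75 on the log2 scale, adjusted p = 0.043 by limma). The 8 endothelial markers summed to between 3675 and 4659 in SCG and between 4353 and 4611 in SCG+PSC, with none at 0, and 7 of the 8 had positive fold changes, with a median of 0.87. None of the 8 passed, with or without the block. At an unadjusted limma p under 0.05, without the block, there were 7 of the 8, beside 943 of all 23491 genes tested. In SCG+MEF against SCG 7 of the 8 were also positive, with a median of 0.55, and 2 had an unadjusted limma p under 0.05. The part of these markers in the isoform levels was not tested.

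Pathways around the respiratory chain showed no member past the threshold in any of the 4 comparisons. The 4 assembly lists for complexes I to IV and ATP synthase had medians between -0.07 and 0.03. Among 12 genes for mitochondrial DNA transcription and copying the median was -0.06 in PSC+SCG against PSC and 0.04 in SCG+PSC against SCG. For 17 genes of mitochondrial RNA processing and stability it was -0.02 and 0.02, and for 10 biogenesis regulators -0.02 and -0.08. The 17 genes of the tricarboxylic acid cycle had medians of -0.02 and -0.04, and 10 membrane transport genes -0.05 and 0.01. Of 23 glycolysis rows tested, 17 were higher in SCG+PSC than in SCG, with a median of 0.28, and 5 (Eno1, Gapdh, Pkm, Pgam1 and Pgk1) had each of SCG+PSC libraries 1 to 3 above every SCG library, against 4.24% of all genes. Summed over the list, SCG had 304463, 241309 and 269874 normalized counts and SCG+PSC 309059, 289812, 365296 and 303441, with overlap. Gapdh had a mean of 46565 ± 4971 in SCG and 57471 ± 3816 in SCG+PSC (SD, n = 3 each), a log2 fold change of 0.31 ± 0.15 SE with a limma adjusted p of 1, and Ldha had 16603 ± 2598 and 21518 ± 4175 (0.37 ± 0.21 SE). The median for glycolysis was 0.07 in PSC+SCG against PSC and -0.02 in SCG+MEF against SCG. The 12 dividing-cell markers were all higher in SCG+PSC than in SCG, with a median of 1.09. None of them passed without the block and 11 of 12 passed with it. Median log2 fold changes of the other marker lists in this comparison were 0.05 for sympathetic neurons, -0.01 for glia, 0.32 for fibroblasts and -0.13 for macrophages. Dividing-cell markers were thus all higher in this comparison, and so were 7 of 8 endothelial markers, although the sums of the endothelial markers overlapped. The part of both marker lists in the values of the respiratory chain was not tested.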

How the data were processed

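RNA was sequenced from PSC cultures and SCG explants, and the authors deposited a table of normalized counts for each side (a signal unit: gene counts divided by DESeq2 size factors, tables normalized separately). Per the labels and the study's methods, reads were aligned to GRCm39 with STAR 2.7.10b, counted per GENCODE M33 gene as uniquely mapped stranded reads, and processed in R 4.2.2 with DESeq2 1.38.3. Members and gene lists were chosen with earlier results of these data known.

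Groups and library numbers came from the sample titles. log2(normalized count + 1) was tested for genes with a sum of at least 10 by limma 3.58.1 with trend (R 4.3.3), PSC and explant tables apart. The explant model held 9 libraries. The threshold was a Benjamini-Hochberg p no greater than 0.05 together with a log2 fold change of 0.5 or more either way. Fold changes are on the log2(value + 1) scale and understate those of low genes. Libraries of the same number deviated together from their group means in every pair of groups (lowest correlation 0.13 over genes, SCG+MEF with SCG+PSC). A fit with the number as a block therefore stands beside the counts of respiratory chain members past the threshold and at an unadjusted p under 0.05. Standard errors are from the fit without the block. The study's model had 4 experimental batches, but no label ties a library to one, so batch and library number cannot be told apart. The labels do not say that libraries of a group came from separate cultures, so p-values measure the spread between libraries, which may be technical.

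Dividing each value by the smallest value above 0 of its library gave whole reads for 100% of values (tolerance 0.01 reads). edgeR 4.0.16 and DESeq2 1.42.0 were run on these reads as alternatives. The edgeR run on the PSC table and the edgeR runs with the replicate block were added after the data were seen. Named genes were the 13 mt- members, per comparison the 3 nuclear members that were furthest up and the 3 furthest down (mean 100 or more), isoform pairs, and the most abundant nuclear member of each complex, of which 1 is not reported here. Ndufs3, Ndufab1, Uqcrb, Atp5j, Atp5k, Ndufa3, Cox6c, Atp5h, Sdhd, Epas1, Gapdh, Eno1, Pkm, Pgam1, Pgk1, Ldha, Vegfa and Adm fall outside that rule and were named after their values were seen. Positions, coding lengths and windows came from GRCm39 with GENCODE M39, and promoters from RefSeq for GRCm38.p6. Procedures were tested on simulated data that held no effect of library number, so the outcome does not measure their power in these libraries. No column of per-sample values was left out.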

Additional observations from a re-analysis of the deposited data

Results flagged for a closer look

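Within the 4 SCG+PSC libraries, 45 named genes and shares above 0 were checked for a library far from the others, and chance marks about 1 in 20 such groups. Cox4i2 in SCG+PSC was marked through library 3, with 135 normalized counts against 84.4, 75 and 75.6 in the others. The gap was 0.842 of the range, above Dixon's critical value for 4 samples. Cox5b-ps in SCG+PSC was marked through library 3 as well, with 149.6 against 129.5, 133 and 131, a gap of 0.836 of the range.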

How the results depend on the processing

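No member passed (0 in each of the 4 comparisons) with the replicate block, pseudocounts of 0.5 and 8, quantile normalization, no filter on low values, a minimum of 10 in 3 or more libraries, equal totals over genes other than mt-, adjusted p alone, edgeR on recovered reads with and without the replicate block, or any 1 library left out, where the count ranged from 0 to 0. In the 3 explant comparisons, the only ones where they were run, all 4 SCG+PSC libraries, only the 2 groups compared and DESeq2 also gave 0. Without 1 library each, the nuclear median ranged from -0.20 to 0.03 in PSC+SCG against PSC, from -0.17 to 0.00 in SCG+PSC against SCG, from -0.12 to 0.06 in SCG+MEF against SCG and from -0.09 to 0.02 in SCG+PSC against SCG+MEF. The mitochondrial median ranged from -0.39 to -0.19, -0.32 to -0.08, -0.09 to 0.23 and -0.33 to -0.05 in the same order. The main mitochondrial median of PSC+SCG against PSC, -0.30, was -0.32 at equal totals over genes other than mt-, -0.04 over the 6 high-count genes and -0.40 over the 6 copied genes. In the 3 explant comparisons the copied genes gave -0.37, -0.40 and 0.04, and the 6 high-count genes gave -0.10, 0.21 and -0.38. All 13 gave -0.21, 0.12 and -0.21 there, and these splits were chosen after the data were seen. Counts of all genes passed moved most: 0, 3, 3 and 0 without the block became 98, 313, 38 and 185 with the replicate block, and DESeq2 gave 61, 22 and 18 in the explants. Of 118 gene values under all alternatives (2297 values), none passed and 140 had the opposite sign. The protein-coding denominator moved no share beyond its SD.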
